A study of Mus musculus with 25 samples.

Results

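The genes that encode the IL-12 family of cytokines and IL-15 were followed through macrophage activation. They were 7 of the 24411 gene symbols in the count files: Il12a, Il12b, Il23a, Il27, Ebi3, Il15 and Il15ra. They were chosen by symbol, as cytokine subunits that pair with each other or, for Il15ra, that carry their partner. RNA was measured by RNA-seq in 25 samples of mouse macrophages under 9 conditions. Bone marrow-derived macrophages (BMDMs) of the C57BL/6 strain had been grown for 4 days with 25 ng/ml of M-CSF, the growth factor of macrophages, in all BMDM groups. The 21 BMDM samples formed 7 groups of 3: control cells, labelled as cultured for 4 h, cells given 100 U/ml of IFN-γ and 100 ng/ml of LPS for 1, 4, 12 or 24 h (IFN-γ-primed LPS), and cells given 10 ng/ml of IL-4 or of IL-13 for 12 h. The times are those the labels give for IFN-γ and LPS together, and how long IFN-γ was present before LPS was not given in the sources used here. The 4 samples of RAW264.7, a transformed mouse macrophage line, formed 2 groups of 2, control cells (4 h) and cells given 100 ng/ml of LPS alone for 4 h. The labels name neither the animals nor the cultures, and the study's methods describe the triplicates only as independent RNA samples. The p-values therefore measure the spread between these samples.

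The IL-12 family is made of heterodimers that share their chains. IL-12 pairs the p40 chain (Il12b) with p35 (Il12a), and IL-23 pairs the same p40 with p19 (Il23a). IL-27 pairs the chain encoded by Ebi3 with p28 (Il27), and Ebi3 with p35 forms IL-35. Activated macrophages and dendritic cells secrete IL-12, which drives T cells towards a Th1 response, and IL-23, which maintains Th17 cells. IL-15 is held on the surface of macrophages by the receptor chain encoded by Il15ra and presented to NK cells and memory CD8 T cells. Because a heterodimer needs both chains, the level of each subunit beside that of its partner is described here as well as its own course. RNA levels do not give protein levels or pairing.

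Each sample had between 2378639 and 3357300 counts (median 2718848), of which 1502618 to 2532496 were left without the ribosomal precursor Rn45s. Levels are given as CPM, the count scaled to a common library size of that remainder, so that 3 counts over the 3 control samples correspond to 0.591 CPM. All 5 macrophage markers examined (Adgre1, Csf1r, Itgam, Cd68 and Lyz2) were detected in every group, but their levels were not steady. From control to 4 h, Csf1r went from 731 to 345 CPM, Itgam from 326 to 164, Cd68 from 944 to 382 and Lyz2 from 22611 to 11000. Lyz2 was at 21977 CPM at 24 h. Adgre1 was at 1064 CPM in control, 992 at 4 h and 4009 at 24 h, and at 99.9 in RAW264.7 control. Of the 6 dendritic cell markers, Flt3 had 0 counts in 7 of the 9 groups, and the summed level of the list was 49.7 to 183 CPM in the control and IFN-γ-primed samples, 268 to 495 CPM with IL-4 or IL-13 and 6.43 to 25.1 CPM in RAW264.7. In BMDMs the dendritic sum was mostly Itgax, which macrophages also express and which went from 168 CPM in control to 37.2 CPM at 24 h. Other markers of that list moved the other way: Clec9a was at 0.393 CPM in control, 47.7 at 1 h and 11.2 at 4 h, and Ccr7 had 0 counts in control and 4.80, 15.5 and 17.8 CPM at 4, 12 and 24 h. The part of these markers in the results was not tested. The lists of T and NK cell, B cell and neutrophil markers summed to at most 3.66, 0.511 and 35.2 CPM in any sample. In bulk RNA, a change in the number of expressing cells and a change in RNA per cell cannot be told apart. By chi-square per gene, replicates 1 and 3 of IFN-γ-primed LPS at 12 h differed most of the 23 replicate pairs compared (4.93, median 2.21). Replicates 1 and 3 of 24 h (4.21) and of 4 h (4.14) came next. By median absolute log2 ratio, replicates 1 and 3 of IL-13 differed most (0.190, beside 0.176 for the 12 h pair). The step calls that replicate 3 of 12 h changed and the mean level of Il12b are also given without it. Folds of pooled CPM include it.

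The upstream sequences of the members with a known promoter entry are shown first, to let the promoter letters be compared with the courses below. RefSeq (GRCm38.p6) gave promoters for 4 of the 7 members: Il12a and Il15ra, with 2 start sites each, and Il12b and Ebi3. Il23a, Il27 and Il15 are named only. Each run below is the 250 bases before a start site, with the upstream start site shown for Il12a and Il15ra. Capitals mark matches, on either strand, to an NF-kB-like motif (GGANNTTCC) or an IRF-like motif (GAAANNGAA).
Il12b (chr11:44399813-44400062, + strand): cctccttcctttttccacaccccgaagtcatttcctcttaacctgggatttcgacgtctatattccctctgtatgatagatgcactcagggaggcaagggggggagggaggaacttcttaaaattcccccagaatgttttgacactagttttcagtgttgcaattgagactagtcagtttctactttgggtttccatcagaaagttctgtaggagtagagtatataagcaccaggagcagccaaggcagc
Il12a (chr3:68690394-68690643, + strand): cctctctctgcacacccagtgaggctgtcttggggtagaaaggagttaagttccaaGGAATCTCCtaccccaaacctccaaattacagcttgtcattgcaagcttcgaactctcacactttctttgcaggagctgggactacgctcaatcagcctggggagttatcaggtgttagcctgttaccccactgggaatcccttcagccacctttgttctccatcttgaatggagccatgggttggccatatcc
Ebi3 (chr17:55952373-55952622, + strand): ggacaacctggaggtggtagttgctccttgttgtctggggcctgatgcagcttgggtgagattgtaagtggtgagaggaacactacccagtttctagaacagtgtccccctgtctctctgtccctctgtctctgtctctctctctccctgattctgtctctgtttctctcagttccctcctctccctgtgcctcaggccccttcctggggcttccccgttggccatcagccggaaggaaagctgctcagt
Il15ra (chr2:11705043-11705292, + strand): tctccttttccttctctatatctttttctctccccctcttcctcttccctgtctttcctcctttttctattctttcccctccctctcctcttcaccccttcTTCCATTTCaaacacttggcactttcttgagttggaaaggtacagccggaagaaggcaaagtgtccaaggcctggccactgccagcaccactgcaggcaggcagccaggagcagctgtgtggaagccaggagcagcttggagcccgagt
Also searched, in the window from 250 bases before to 50 after the start, were 3 further motifs: STAT-like (TTCNNNGAA), AP-1-like (TGANTCA) and C/EBP-like (TTNNGNAA). The NF-kB-like letters stood in both Il12a windows, with their first base at -194 of the upstream start and at 19 of the downstream start, and in 4.26% of all 32851 promoters. The IRF-like letters stood in both Il15ra windows, at -149 and at 31 of their own starts, and in 8.56% of all promoters. The downstream Il15ra window also held 1 AP-1-like match (7.81% of all promoters) and 1 C/EBP-like match (40.7%). None of the motifs, including the STAT-like letters (8.30% of all promoters), was found in the Il12b and Ebi3 windows, which says only that these letters are not there. A match is a description of letters and not of binding. For Il27, the study's supplement lists stretches that matched binding motifs of the transcription factors IRF1 and RELA (a subunit of NF-kB). In these, capitals mark the IRF-like letters, which the IRF1 stretch holds.
Il27 IRF1 match: GAAAGTGAAact
Il27 RELA match: gggaattacc

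Control BMDMs held almost no RNA of the 4 subunits that are particular to IL-12, IL-23 and IL-27. Il12a, Il23a and Il27 had 0 counts in all 3 control samples, and Il12b had 2 counts in all. Ebi3 and Il15 were detected in every sample of the series, and so was Il15ra. In control BMDMs, Ebi3 stood at 9.65 ± 2.5 CPM (SD, n = 3), Il15 at 16.6 ± 1.36 CPM and Il15ra at 2.76 ± 0.706 CPM. IFN-γ-primed LPS raised all 7 genes at some time, but with different courses, shown in the plot of levels by sample.

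**Figure D1:**
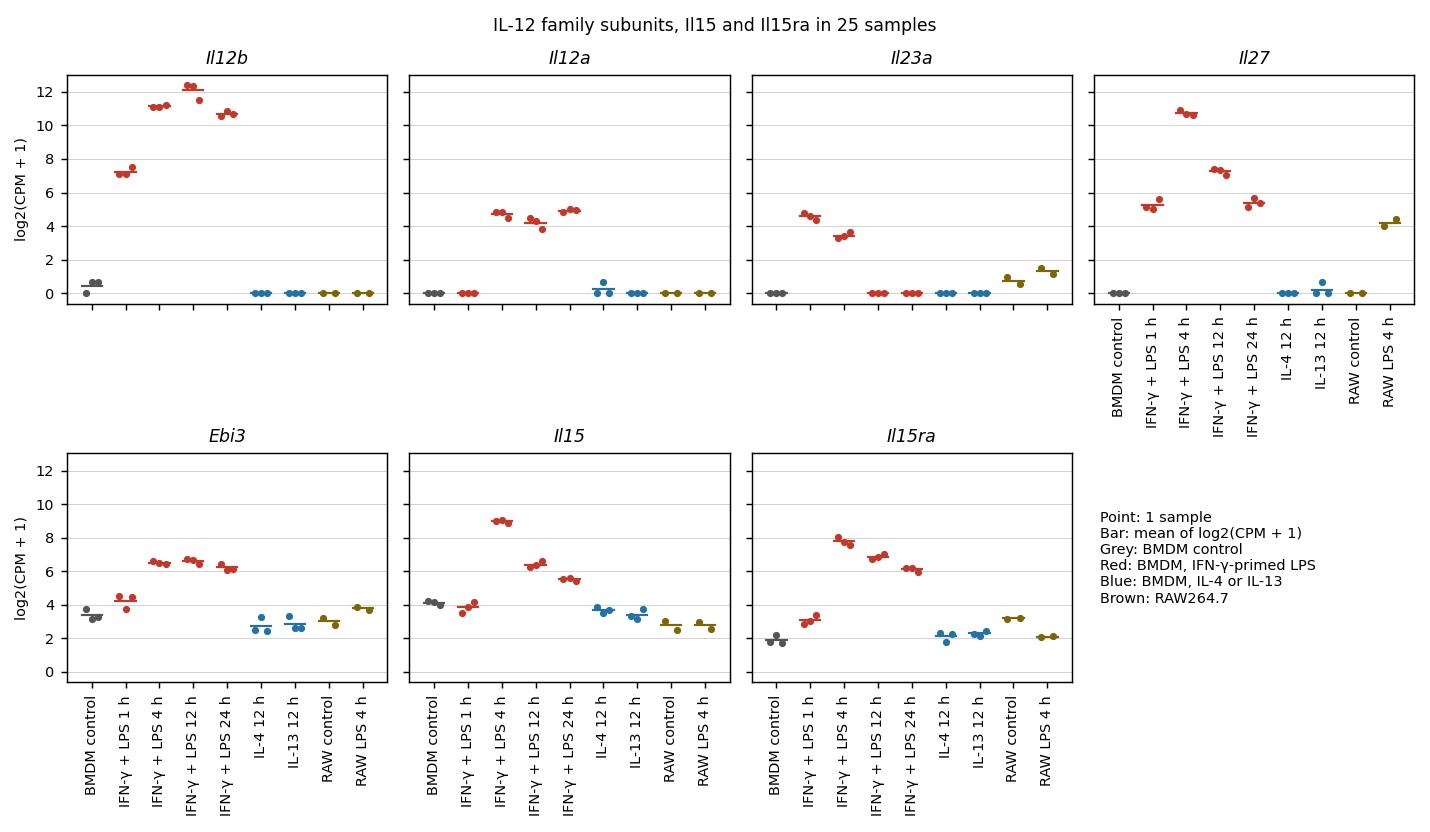
Levels of the 7 genes in every sample, as log2(CPM + 1) on the vertical axis, by condition on the horizontal axis. Each point is 1 sample and each bar the group mean. Il12b, Il12a, Il23a and Il27 lie at or near 0 in control BMDMs and with IL-4 or IL-13, and all 7 genes are raised at 4 h of IFN-γ-primed LPS.

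Against control, a gene was called upregulated or downregulated where edgeR's quasi-likelihood test over 9568 genes gave an FDR within 0.01 and its log2 fold change reached 1.5 in size. All time points, and IL-4 and IL-13 below, were compared with the same 3 control samples, which are labelled 4 h. Against control, treatment therefore cannot be told apart from time in culture except at 4 h. At 1 h, 4 members were upregulated (Il12b, Il23a, Il27 and Il15ra) where 5.04% of all genes were. At 4 h, all 7 were upregulated, against 11.4% of all genes. At 12 h, 6 were upregulated, against 8.87% of all genes, and at 24 h 6, against 7.93%. Il23a was the member not called at 12 and 24 h, with 0 counts in control and treated samples alike. No member was downregulated at any time, against 2.08%, 11.4%, 8.42% and 6.93% of all genes in order of time. At 4 h the median fitted log2 fold change was 7.52 over the members and -0.07 over all genes. For members with 0 counts in the control the fitted change depends on the prior count, so folds are given below as lower bounds from CPM, with 3 counts over the control group taken as the floor. With such members at their bound, the median log2 ratio of pooled CPM over the members was 5.44 at 4 h. Fold changes of the fit are scaled by TMM. Computed over all samples of the series, TMM raised values at 4 h by 0.60 on the log2 scale relative to control, compared with plain CPM. At the other times it raised them by 0.23 to 0.38. The fit takes its factors from its own samples and filtered genes, so its shifts can differ from these.

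Il12b encodes p40, the chain common to IL-12 and IL-23. It had 0, 0.596 and 0.582 CPM in the control samples and 136, 135 and 184 CPM at 1 h. It then reached 2194, 2225 and 2424 CPM at 4 h. At 12 h it was at 5436, 5297 and 2898 CPM, and replicate 3 was closer to the samples of 4 h than to the other 2 of its group. The 24 h samples had 1476, 1851 and 1662 CPM, below all those of 4 and 12 h. Per kb of exon, Il12b had the highest level of the 7 at 12 and 24 h and Il27 at 4 h. With only 2 control counts, the ratio of pooled CPM to control was 390 at 1 h (95% counting interval 108 to 3222), 5795 at 4 h (1604 to 47854) and 11381 at 12 h (3150 to 93982).

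Between neighbouring times, Il12b rose by 4.24 ± 0.23 from 1 to 4 h (log2 fold change ± SE, edgeR FDR 1.05e-08). The further rise from 4 to 12 h was 0.77 ± 0.20 (FDR 0.00695), and it did not stay past the FDR cutoff when any 1 of 5 samples was left out. Without replicate 3 at 12 h, which stands apart, it was 1.00 with an FDR of 3.2e-13, and without each of the other 5 samples the FDR was 0.0140 to 0.0294. With the replicate number as a block the FDR was 0.0175. From 12 to 24 h Il12b fell by 1.52 ± 0.20 (FDR 0.000143), and each fit with a sample left out called this fall.

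Il12a encodes p35, the partner of p40 in IL-12. It had 0 counts in the control samples and 0 at 1 h, when Il12b was already at 151 ± 28.3 CPM. At 4 h it was at 27.3, 27.8 and 21.7 CPM, at least 43.3-fold above control. The 12 h samples were at 20.9, 18.8 and 13.5 CPM and the 24 h samples at 27.4, 31.3 and 29.6 CPM. The samples of 12 h lay below those of 4 h and 24 h, while those of 4 h and 24 h overlapped. The fall from 4 to 12 h was called (-0.75 ± 0.21, edgeR FDR 0.00277), but not with DESeq2 (FDR 0.0134) or without replicate 3 of 12 h (-0.60, FDR 0.0267), replicate 1 of 4 h (FDR 0.0102) or replicate 2 of 4 h (FDR 0.0214). The change from 12 to 24 h was 0.65 ± 0.19 and missed the cutoff (FDR 0.0114), although it was called with replicate number added to the fit as a block (FDR 0.00839). These values rest on 28 to 75 counts per sample.

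Il23a encodes p19, the chain that makes IL-23 with p40. Its highest level came at 1 h, with 26.0, 23.6 and 19.98 CPM, followed by 8.65, 9.46 and 11.4 CPM at 4 h and 0 counts in all 6 samples of 12 and 24 h. The samples of 1 h lay above all those of 4 h. At 1 h it was at least 39.0-fold above control and at least 44.5-fold above 12 h. The fall from 1 to 4 h was -0.88 ± 0.26 (edgeR FDR 0.00484). It was not called with DESeq2 (FDR 0.0409) or when any 1 of 4 samples was left out, replicate 1 or 2 of 1 h or of 4 h (FDR 0.0154 to 0.0304). The 3 samples of 4 h held only 13, 17 and 19 counts.

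Il27 encodes p28, the chain particular to IL-27. From 0 counts in control it came to 34.6, 30.8 and 47.6 CPM at 1 h and to 1945, 1628 and 1592 CPM at 4 h. It was then at 170, 164 and 133 CPM at 12 h and at 34.0, 49.2 and 39.9 CPM at 24 h, where the samples overlapped those of 1 h. It peaked at 4 h, at least 2898-fold above control. It rose by 5.83 ± 0.13 from 1 to 4 h (edgeR FDR 7.44e-32), fell by 3.69 ± 0.11 from 4 to 12 h (FDR 8.37e-27) and fell by 2.0 ± 0.13 from 12 to 24 h (FDR 4.65e-15). All fits with a sample left out kept these 3 calls.

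Ebi3 encodes the partner of p28. Its 3′ part overlaps Gm16712, an antisense gene on the other strand (GENCODE M21), and the unstranded column held 927 Ebi3 counts over all samples where the sense column, used here, held 1825. It was at 12.5, 7.75 and 8.73 CPM in control and at 21.8, 12.7 and 20.9 CPM at 1 h. The change at 1 h, 1.14 ± 0.25, passed the FDR (0.000248) but not the fold change cutoff. Ebi3 then stood at 95.2, 90.7 and 86.1 CPM at 4 h, 107, 99.9 and 86.2 CPM at 12 h, and 86.1, 67.6 and 69.5 CPM at 24 h. The samples of 4 and 12 h overlapped, and the step between them was -0.11 ± 0.13 (edgeR FDR 0.487), while without TMM the mean was 97.6 ± 10.5 CPM at 12 h against 90.7 ± 4.55 at 4 h. From 12 to 24 h Ebi3 fell by 0.48 ± 0.12 (FDR 0.00345). That call was lost with unstranded counts (-0.28, FDR 0.228), with only the 2 groups fitted (FDR 0.0105) and without any 1 of 4 samples (replicate 1 or 2 of 12 h, replicate 2 or 3 of 24 h, FDR 0.0127 to 0.0281). Against control, the pooled CPM of Ebi3 was 9.38-fold at 4 h, 10.1-fold at 12 h and 7.68-fold at 24 h.

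Il15 encodes the cytokine that Il15ra presents. It was at 17.8, 16.7 and 15.1 CPM in control and at 10.6, 13.9 and 17.1 CPM at 1 h, where the samples overlapped and no change was called (-0.05 ± 0.22, edgeR FDR 0.892). At 4 h it was at 514, 520 and 475 CPM. It was at 74.6, 80.5 and 94.8 CPM at 12 h and 45.6, 48.3 and 41.9 CPM at 24 h, still above every control sample. The rise from 1 to 4 h was 5.50 ± 0.14 (FDR 7.6e-34), and Il15 fell by 2.81 ± 0.11 from 4 to 12 h (FDR 4.75e-26) and by 0.97 ± 0.13 from 12 to 24 h (FDR 7.3e-08).

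Il15ra encodes the chain that binds IL-15 with high affinity and presents it. It was at 2.38, 3.58 and 2.33 CPM in control and at 6.38, 7.25 and 9.52 CPM at 1 h, already upregulated (1.66 ± 0.40, edgeR FDR 0.000799). Without replicate 3 of 1 h this change was 1.48 (FDR 0.0114), which missed both cutoffs. The counts behind it were 4 to 6 in control and 12 to 20 at 1 h. At 4 h Il15ra was at 258, 213 and 191 CPM, followed by 106, 113 and 129 CPM at 12 h and 71.6, 71.3 and 61.2 CPM at 24 h. It rose by 5.15 ± 0.17 from 1 to 4 h (FDR 2.24e-29), then fell by 1.14 ± 0.11 (FDR 7.4e-12) and by 0.86 ± 0.12 (FDR 3.56e-07) in the next 2 steps. The fall of the pooled CPM from 4 to 12 h was 1.89-fold for Il15ra and 6.01-fold for Il15.

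**Figure D2:**
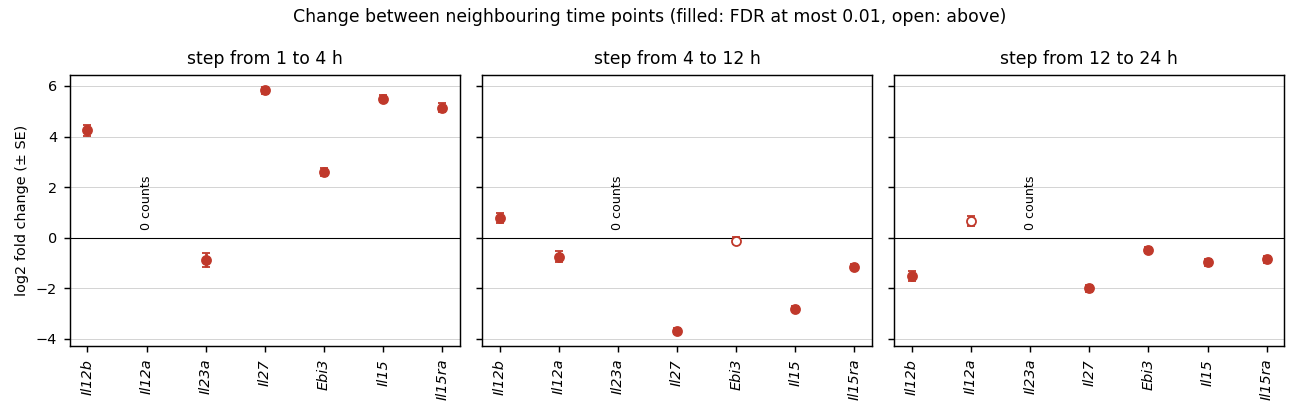
Log2 fold changes with standard errors (edgeR) of each member between neighbouring times of IFN-γ-primed LPS. Filled points passed an FDR of 0.01, open points did not, and "0 counts" marks a member with no counts at 1 or both of the times. Of the members with a point, Il23a alone lies below 0 in the first step and Il12b alone lies above 0 in the second.

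The 3 steps set the members against all genes as follows. From 1 to 4 h, 6 members rose (19.8% of all genes did, at an FDR of 0.01 and any size) and Il23a fell (19.1%). From 4 to 12 h, Il12b rose (16.7%) and 5 members fell (19.2%), with Ebi3 not called. From 12 to 24 h, 5 members fell (8.9%) and none rose (5.31%). The share of counts on the antisense strand of Rn45s differed between libraries of control, 1, 4 and 12 h (0.0386% to 0.122%) and those of 24 h, IL-4 and IL-13 (0.00603% to 0.0214%). Whatever set these libraries apart cannot be told apart from time in the step from 12 to 24 h and in 24 h against control, nor from treatment where IL-4 or IL-13 are compared with control or with IFN-γ-primed LPS at 12 h. RAW264.7 libraries held 0.0199% to 0.0283%, also below those of BMDM control and 4 h. The same limit therefore holds where levels of RAW264.7 and BMDMs are compared at 4 h.

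The balance of paired subunits was compared as the ratio of their levels per kb of exon length within each sample, where both had at least 10 counts in every sample of a group. Per kb, the shared chain p40 was in large excess over both partners. The ratio of Il12b to Il12a was 59.2, 58.8 and 82.3 at 4 h, 191, 207 and 158 at 12 h, and 39.6, 43.6 and 41.3 at 24 h. Among these 3 times the excess was widest at 12 h. At 1 h Il12a had 0 counts, and with 3 counts over the group as the floor the ratio was at least 212. The ratio of Il12b to Il23a was 3.80, 4.18 and 6.73 at 1 h and 185, 172 and 155 at 4 h. This was the largest change of balance among the steps tested, 35.9-fold.

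**Figure D3:**
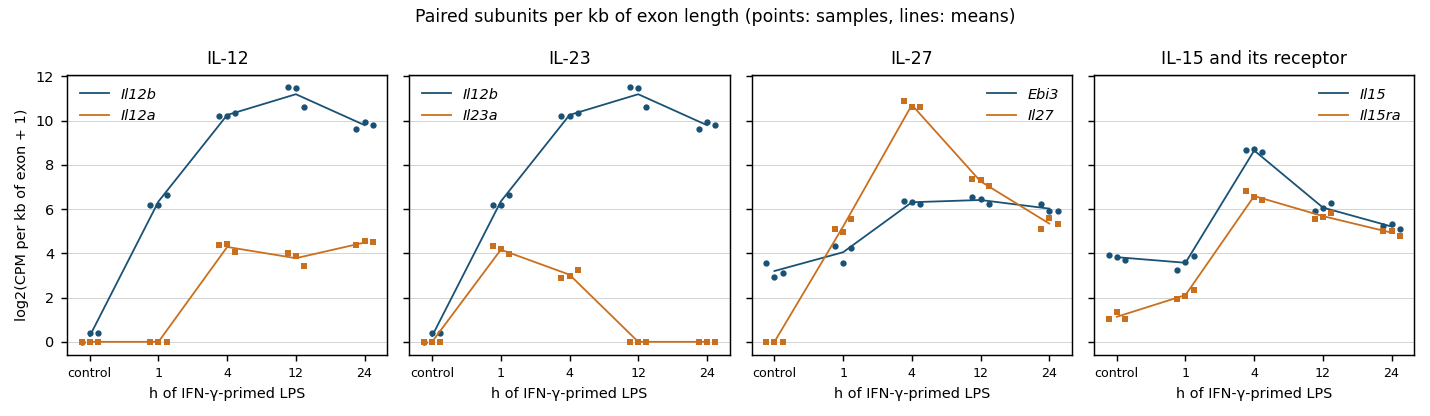
Levels of subunits that pair, as log2(CPM per kb of exon + 1), in control BMDMs and along IFN-γ-primed LPS. Points are samples and lines join means. Il12b lies above Il12a and Il23a from 1 h on, Il27 lies above Ebi3 at 1, 4 and 12 h, and Il15 and Il15ra approach each other at 12 and 24 h.

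On sense counts, the IL-27 pair changed sides at 24 h. The ratio of Ebi3 to Il27 per kb was 0.558, 0.364 and 0.389 at 1 h and 0.0433, 0.0493 and 0.0478 at 4 h, so that Il27 exceeded Ebi3 by 21.4-fold at its peak. The ratio returned to 0.557, 0.538 and 0.572 at 12 h and was 2.24, 1.22 and 1.54 at 24 h, above 1 in all 3 samples. With unstranded counts, which hold fewer Ebi3 counts, it was 1.26, 0.631 and 0.771 at 24 h, so the change of sides was not kept, and 0.0227 to 0.0241 at 4 h. In control BMDMs, Ebi3 was present with no Il27 counts. Ebi3 exceeded Il12a, its partner in IL-35, by 4.23-fold at 4 h, 6.61-fold at 12 h and 2.99-fold at 24 h (2.10, 3.02 and 1.58-fold with unstranded counts). The ratio of Il15 to Il15ra per kb was 3.05, 3.51 and 3.30 at 1 h and 3.64, 4.47 and 4.56 at 4 h. At 12 h it was 1.29, 1.30 and 1.35, and at 24 h 1.17, 1.24 and 1.25. With coding length in place of exon length, all these ratios stayed on the same side of 1 and were 0.801 to 1.16 times as large.

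Each pair gave 2 or 3 tests between neighbouring times, 11 in all. In each of the 11, the samples of the earlier and the later time did not overlap. How often the ratios of other gene pairs were also apart was not computed, so whether this is particular to these pairs is not known. An exact two-sided permutation test of 3 against 3 samples cannot go below p = 0.1, and all 11 gave this value (0.1 after Benjamini-Hochberg adjustment). For 2 pairs there were enough counts in all 12 samples to set 1 and 4 h against 12 and 24 h, 6 against 6. The log2 ratio of Il15 to Il15ra was lower at the later times by -1.55 (exact two-sided permutation p = 0.00216, the smallest the design allows, adjusted 0.00433). The log2 ratio of Ebi3 to Il27 was higher at the later times by 2.74 (exact two-sided permutation p = 0.00649, adjusted 0.00649). For this pair the 2 sides overlapped, with a highest early log2 count ratio of -0.665 and a lowest late one of -0.719. The 1 h mean (-1.04) was close to the 12 h mean (-0.672), whereas the 4 h mean was -4.24 and the 24 h mean 0.867. The difference of 2.74 therefore rests on the 4 and 24 h samples and shows no steady shift from early to late times. Each side of these tests holds 2 time points, so the spread within a side is not replicate error alone. The permutations treated all 12 samples as exchangeable although only 2 times stand on each side. Their p-values therefore describe these samples and not a general difference between early and late times.

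**Figure D4:**
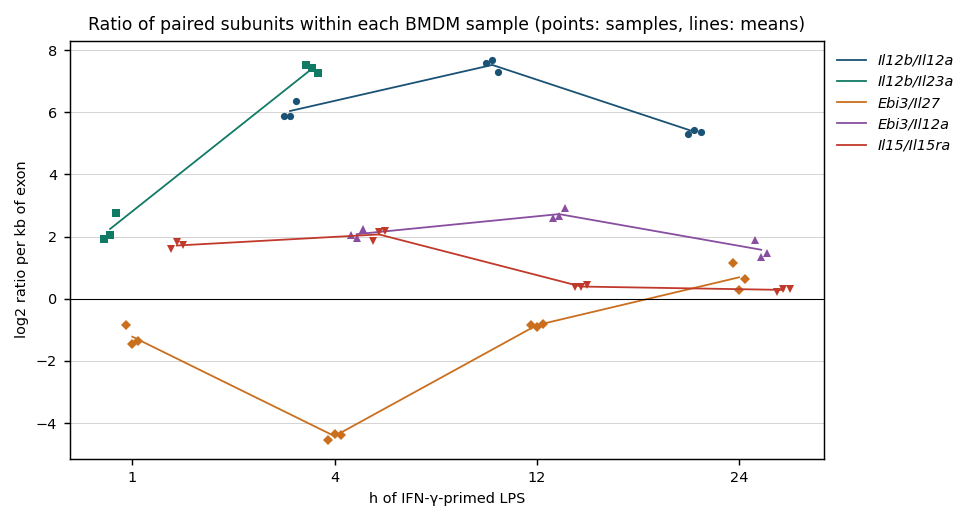
Log2 ratio of paired subunits per kb of exon within each sample (vertical axis) at 1, 4, 12 and 24 h of IFN-γ-primed LPS, with points for samples and lines for means. The horizontal line marks equal levels. Il12b to Il23a climbs from 1 to 4 h, Ebi3 to Il27 has its minimum at 4 h and ends above 0 at 24 h on the sense counts plotted, and Il15 to Il15ra falls between 4 and 12 h.

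With IL-4 or IL-13, the cytokines of alternative activation, no member was called in either direction. Il12b and Il23a had 0 counts in all 6 samples, Il12a had 1 count in 1 IL-4 sample and Il27 1 count in 1 IL-13 sample. Only Ebi3 and Il15 passed the filter on low counts, and neither was called with IL-4 (3.86% of all genes were, in either direction, with 0.7 as the cutoff on the log2 scale) or with IL-13 (5.36%). Ebi3 was at 4.63, 8.54 and 4.48 CPM with IL-4 (-0.71 ± 0.36, edgeR FDR 0.215) and at 8.99, 5.13 and 5.07 CPM with IL-13 (-0.65 ± 0.35, FDR 0.226). Il15 was at 13.3, 10.4 and 12.2 CPM with IL-4 (-0.47 ± 0.25, FDR 0.254) and at 8.99, 7.98 and 12.4 CPM with IL-13 (-0.79 ± 0.26, FDR 0.03). All 6 of these Il15 values lay below every control sample, while those of Ebi3 overlapped the control. Il15ra had 17 counts over the IL-4 samples, 20 over the IL-13 samples and 14 over the control samples. Between IL-13 and IL-4, the differences were 0.06 ± 0.40 for Ebi3 and -0.32 ± 0.28 for Il15 (FDR 0.994 and 0.902, with 0.0649% of all genes called).

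At 12 h, IFN-γ-primed LPS and the alternative cytokines were also compared with each other. With the cutoffs of the time course, 6 members were higher with IFN-γ-primed LPS than with IL-4 (8.99% of all genes were) and 6 than with IL-13 (8.95%), all but Il23a, which had 0 counts in the 3 groups. By pooled CPM, Il12b was at least 7364-fold higher than with IL-4 and at least 7603-fold higher than with IL-13. Il27 was at least 255-fold higher than with IL-4, and Il12a at least 29.9-fold higher than with IL-13. Ebi3 was 16.5-fold and 15.5-fold higher than with IL-4 and IL-13, Il15 6.99-fold and 8.51-fold, and Il15ra 33.7-fold and 29.6-fold.

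In RAW264.7 cells, Il27 was the only member called after LPS. It went from 0 counts in both control samples to 14.9 and 20.1 CPM at 4 h, at least 25.3-fold, and 4 members passed the filter (2.39% of all genes were upregulated and 3.22% called in either direction, with 2 as the cutoff on the log2 scale). Il12a and Il12b had 0 counts in all 4 samples. A count of 0 over the 2 LPS samples allows at most 3 counts, and by pooled CPM the BMDM level at 4 h was at least 3457-fold higher for Il12b and at least 38.8-fold higher for Il12a. Il23a had 2 and 1 counts in control and 4 and 3 with LPS, a ratio of 2.22 (95% counting interval 0.506 to 13.3). Ebi3 was at 8.26 and 6.09 CPM in control and 13.5 and 12.1 CPM with LPS (1.00 ± 0.33, edgeR FDR 0.00944, below the fold change cutoff). Il15 was at 7.34 and 4.68 CPM in control and 6.97 and 5.02 CPM with LPS (0.16 ± 0.41, FDR 0.803). Il15ra was at 7.80 and 8.43 CPM in control and 3.25 and 3.34 CPM with LPS, on 7 to 18 counts per sample (-1.11 ± 0.44, FDR 0.0344, not called).

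The response at 4 h was tested for a difference between the cell types in a fit of 10 samples. The difference, RAW264.7 minus BMDM, was -8.0 ± 0.55 for Il15ra (edgeR FDR 1.27e-28), -5.38 ± 0.49 for Il15 (FDR 1.06e-19) and -2.83 ± 0.42 for Ebi3 (FDR 5.22e-09). For Il23a it was -6.58 ± 1.89 (FDR 0.00284), a value that depends on the prior count because BMDM control had 0 counts, and without replicate 1 of the RAW264.7 control the FDR was 0.0722. In this comparison 4 members were lower and 16.4% of all genes were. For Il12a, Il12b and Il27 the difference could not be estimated by edgeR, since RAW264.7 or both controls had 0 counts. DESeq2 called all 7 lower, but its values for these 3 rest on groups with 0 counts and are not printed. BMDMs received IFN-γ with LPS and RAW264.7 LPS alone, so cell type and IFN-γ cannot be told apart in this difference. LPS without IFN-γ in BMDMs was not analysed here.

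The receptors of these cytokines were examined as a list of 7 chains, of which 4 passed the filter in the time course. At 4 h, 1 of the 4 was upregulated (11.4% of all genes) and their median log2 fold change was 0.97, beside -0.07 over all genes. Il2rg, the common γ chain used by IL-15, rose from 20.5 ± 2.86 CPM in control to 79.3 ± 17.9 at 1 h and 155 ± 25.6 at 24 h and was upregulated at every time (log2 fold changes 2.15 ± 0.17 to 3.14 ± 0.16, highest at 12 and 24 h). It was the only receptor chain upregulated at 1 and 4 h. Il23r, the p19-specific receptor chain, was called at 12 h (edgeR FDR 1.81e-07) and 24 h (FDR 4.42e-07), on 49 and 54 counts over 3 samples against 1 in control. By pooled CPM these were ratios of 43.0 (95% counting interval 7.37 to 1733) and 40.0 (6.88 to 1608). The 12 h samples spread widely, with 7.66, 3.43 and 13.5 CPM, and Il23a itself had 0 counts at both times. Il6st (gp130, the shared chain of the IL-27 receptor) fell from 100.3 ± 5.92 CPM in control to 23.8 ± 4.22 at 12 h and was downregulated at 12 h (-1.77 ± 0.14) and 24 h (-1.70 ± 0.14). Il12rb2, a chain of the IL-12 receptor, was at 12.0 ± 2.46 CPM in control, 22.1 ± 1.98 at 1 h and 3.25 ± 2.86 at 24 h, and was downregulated at 24 h (-1.66 ± 0.36, FDR 0.000124). Without replicate 1 of the control, or replicate 1 or 3 of 24 h, it was -1.48, -1.24 or -1.44 and missed the cutoff.

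The other 3 chains had few counts. Il12rb1, common to the IL-12 and IL-23 receptors, had 1 count over the control samples and 21 over those of 1 h. Il27ra, the specific IL-27 receptor chain, had 12 counts over the control samples, 2 at 4 h and 20 with IL-4. Il2rb, the β chain used by IL-15, had at most 2 counts in any group. With IL-4 and IL-13, Il6st was the only receptor chain called, higher by 0.73 ± 0.11 (edgeR FDR 8.81e-07) and 1.14 ± 0.10 (FDR 7.66e-13). Without replicate 2 of IL-4 the first was 0.69, below the cutoff. In RAW264.7, 2 chains passed the filter and none was called, with Il6st at 93.1 ± 9.85 CPM (n = 2) in control and 44.9 ± 0.395 CPM with LPS (-0.87 ± 0.14) and Il2rg at 35.5 ± 7.38 and 58.6 ± 4.04 CPM (0.90 ± 0.16).

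Among 9 kinases and STATs that signal below these receptors, 8 were tested in the time course, and 2, 5, 4 and 2 were upregulated in order of time (5.04%, 11.4%, 8.87% and 7.93% of all genes), with none downregulated. Their median log2 fold change was 1.90 at 4 h, beside -0.07 over all genes. At 4 h the largest change was that of Jak2 (4.57 ± 0.11, edgeR FDR 2.76e-36), the kinase bound to the IL-12 and IL-23 receptors, and the smallest called was that of Tyk2, its partner there (1.52 ± 0.13, FDR 2.03e-14, and 1.48 or 1.37, below the cutoff, without replicate 2 of the control or replicate 1 of 4 h). Jak2 was also the only one called with IL-4 (1.19 ± 0.11, FDR 3.9e-12) and with IL-13 (1.68 ± 0.11, FDR 2.41e-18). At 24 h, Tyk2 gained a call without replicate 1 of the control (1.53) or replicate 3 of 24 h (1.56). It also gained one with all genes of at least 1 count kept (1.52). Of 11 transcription regulators described for the members' promoters, all tested, 5, 9, 4 and 4 were upregulated in order of time, beside the same shares of all genes, and none was downregulated. At 1 h, Nfil3 (1.63) gained a call without replicate 2 of the control and Rela (1.57) without replicate 1. At 12 h, Nfkb1 (1.66) gained one without replicate 3 of 12 h. At 4 h the upregulated ones ran from Nfkbiz (5.88 ± 0.12, FDR 2.1e-38), an atypical IκB needed for Il12b expression, down to Cebpb (2.36 ± 0.17, FDR 1.03e-16), with a median of 2.57 over all 11. Maf, a repressor of IL-12 genes chosen for mention after its values were seen, was at -1.48 ± 0.15 at 4 h (FDR 1.21e-10), just short of the cutoff, and was downregulated without replicate 3 of the control (-1.51). With IL-4, 2 regulators were higher (2.22% of all genes), led by Nfil3, a repressor of Il12b (2.43 ± 0.24, FDR 1.15e-11), and 2 were lower (1.64%), Nfkbiz (-1.32 ± 0.26, FDR 0.000153) and Maf (-1.06 ± 0.12, FDR 5.87e-10). With IL-13, 2 were higher (2.98%), led by Nfil3 with 2.78 ± 0.23 (FDR 9.72e-15), and 2 lower (2.38%), Nfkbiz with -1.34 ± 0.26 (FDR 7.2e-05) and Maf with -1.17 ± 0.12 (FDR 2.61e-11). In RAW264.7, none of 7 kinases and STATs and 3 of 11 regulators were upregulated (2.39% of all genes). Leaving out 1 library moved these counts both ways: without replicate 1 of the control, Nfkb2 (1.96) lost its call and Jak2 (2.09) gained one, Jak2 also gained one without replicate 1 of LPS (2.03), and Cebpb did without replicate 2 of the control (2.34).

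The genes whose course most resembled each member were ranked by Pearson's r of the mean log2(CPM + 1) over the 9 conditions, among 9623 genes with at least 10 CPM in a condition. The 9 points share libraries within each condition, and r is given as a description. Il12b was most like Ifi205 (0.998), Lrrc4 (0.997) and Tgtp2 (0.996), and Il12a like Itgb8 (0.986), BC147527 (0.986) and Pydc4 (0.984). Il23a stood with Med21 (0.985), Ifnb1 (0.975) and H3f3b (0.966), and its r with the other members was at most 0.548 (Il27). For Il27 the nearest were Rab11fip1 (0.989), Nfkb2 (0.988) and Helz2 (0.984). Ebi3 was nearest to Mx1 (0.992), Ifit3 (0.990) and Ifit3b (0.987). Il15 was nearest to Mycl (0.978), Pou3f1 (0.974) and Tmem2 (0.974), and Il15ra to Apobec3 (0.990), Gfi1 (0.989) and Tnfsf10 (0.983). Ifit3 and Ifit3b, and Ifi205, Tgtp2, BC147527 and Pydc4, belong to families of similar copies between which reads may be split.

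The genes lie apart in the genome (GRCm38, GENCODE M21). Il12a lies at chromosome 3, 68690644 to 68698547 (+ strand), and Il12b at chromosome 11, 44400063 to 44414033 (+). Il23a lies at chromosome 10, 128296139 to 128298752 (-), and Il27 at chromosome 7, 126589010 to 126594941 (-). Ebi3 lies at chromosome 17, 55952640 to 55957022 (+). Il15 lies at chromosome 8, 82331632 to 82403222 (-), and Il15ra at chromosome 2, 11705290 to 11734317 (+). Their exon lengths, over RefSeq-matched transcripts, ran from 1021 bases for Il27 to 2291 for Il15ra and were used for all levels per kb.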

How the data were processed

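The study's methods describe directional libraries from RNA depleted of ribosomal RNA, while the molecule label of the samples reads polyA RNA. Which of these applies was not tested. Per the labels, CASAVA 1.8.2, Trimmomatic 0.33, STAR 2.5.1 and the mm10 build were used. The annotation release is not given in the sources used here. The deposited values are whole-number read counts per gene symbol, without normalization, and the column for the sense strand was used. Rn45s (20.1% to 39.8% of counts) was left out. Of the uniquely mapped reads, 62.7% to 69.1% lay on no gene of their strand. Intervals and floors cover counting error only. Groups came from the labels. Counts were tested with edgeR 4.0.16 in R 4.3.3 (filterByExpr by group, TMM, robust quasi-likelihood fit with 1 mean per group, Benjamini-Hochberg adjustment over all genes tested), and the SE was taken from the fold change and its F statistic. DESeq2 1.42.0, RLE scaling, other filters, unstranded counts, Rn45s kept, a replicate block, smaller fits and leaving out each sample were alternatives. Leaving out replicate 3 of 12 h for the level of Il12b, and subunit levels from unstranded counts, were chosen after seeing the data. Subunit ratios were tested by exact permutation in SciPy. Fits were tested on simulated data with 200 changed genes. They recovered 200 for 4 h against control, 198 for IL-4 and 154 for RAW264.7, with 0, 1 and 0 false calls. The counts recovered depend on the sizes of change and the spread put into the simulation, which are not given here. The simulation therefore does not show how small a change could be detected, including for members not called with IL-4 or IL-13. Only genes above a minimum count were changed, so members with few counts are not covered.

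Named were every member, every receptor chain, the called genes of the other 2 lists with the largest and smallest change at 4 h and with IL-4 or IL-13, and 3 like genes per member. The members and lists were chosen with earlier results of these data known. Promoters are from RefSeq (GRCm38.p6) and gene positions from GENCODE M21.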

Additional observations from a re-analysis of the deposited data

Results flagged for a closer look

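The response at 4 h differed between RAW264.7 cells given LPS and BMDMs given IFN-γ and LPS, by a test of the difference itself (edgeR, adjusted over 10269 genes). RAW264.7 minus BMDM, the log2 difference was -8.0 ± 0.55 for Il15ra (FDR 1.27e-28), -5.38 ± 0.49 for Il15 (FDR 1.06e-19), -2.83 ± 0.42 for Ebi3 (FDR 5.22e-09) and -6.58 ± 1.89 for Il23a (FDR 0.00284). The last rests on 10 RAW264.7 counts, and without replicate 1 of the RAW264.7 control it was -6.04 with an FDR of 0.0722. IFN-γ and cell type cannot be told apart here.

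Counts on the strand opposite to Il12b, which entered only the alternative with unstranded counts, were 0 in control, 45 over the samples of 4 h, 102 over those of 12 h and 9 over those of 24 h. At 12 h they were 0.392% of all Il12b counts, below the antisense share over all genes of a library, which was 0.628% to 1.05%.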

How the results depend on the processing

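Of 182 counts of called members recomputed under an alternative, 1 moved by over 1.5 times: DESeq2 called 7 members lower in the response difference, where edgeR called 4 and could not estimate the other 3 because groups had 0 counts. Of the log2 fold changes of single members, 887 kept their direction and side of the cutoffs, 23 lost the call, 1 gained it and 6 changed sign. The signs changed for uncalled values close to 0 with 1 sample left out: Il15 at 1 h ran from -0.24 to 0.13, Ebi3 between IL-13 and IL-4 from -0.24 to 0.43, and Il15 in RAW264.7 from -0.11 to 0.51. The causes were not tested. Levels moved more: in 55 of 93 comparisons a mean level shifted by over 1 SD between replicates. The comparisons were with Rn45s kept and with TMM scaling, and 1 was Il12b at 12 h without replicate 3. Of 36 subunit ratios per kb under coding length or unstranded counts, the latter chosen after seeing the data, 13 moved by over 1 SD and 1 changed sign, Ebi3 to Il27 at 24 h, whose log2 ratio was 0.69 with sense counts and -0.24 with unstranded counts.

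Whether same-numbered samples shared an animal or a culture is not known. Their deviations from the group means had mean correlations of 0.0236 (time course), 0.0109 (IL-4 and IL-13) and 0.0222 (RAW264.7). For samples with other numbers these were -0.0118, -0.00548 and -0.0222. Single same-numbered pairs of the time course ran from -0.0625 to 0.164, and these values do not settle the question. In the fit with a replicate block, the rise of Il12b from 4 to 12 h lost its call (0.76, edgeR FDR 0.0175), that of Il12a from 12 to 24 h gained one (0.66, FDR 0.00839), and no other call on a member changed. Without replicate 3 of 12 h, the mean level of Il12b at 12 h was 5366 CPM in place of 4544. Depth limits Il23a, Il15ra at 1 h, all members in RAW264.7 but Il27, and all with IL-4 or IL-13.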
